A study of Mus musculus with 9 samples.

Results

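The genes described here are 10 genes of bone morphogenetic protein (BMP) signalling in mouse embryonic fibroblasts, connective tissue cells grown from embryos. They are the ligands Bmp4 and Bmp2, the receptor Bmpr1a, the inhibitors Bambi, Smad6, Grem1 and Mgp, and the response genes Id1, Id2 and Id3. They were found by their symbol in the authors' deposited table, which gave 17 of the 45037 probe sets that are not array controls, and 10 of 20672 named genes. A probe set is a group of probes on the array that report 1 transcript or a few related ones. Bmpr1a has 6 probe sets and Id2 has 3, while each of the other genes has 1. They were chosen by their log2 differences between the groups on these same arrays, so their values are a description and carry no p-value.

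BMP ligands bind pairs of type I and type II receptor kinases at the cell surface, and the active receptor phosphorylates Smad1, Smad5 and Smad9, which enter the nucleus with Smad4. The Id genes are among the best known direct targets of these Smads. Id proteins have a helix-loop-helix domain but no DNA-binding region, and hold bHLH transcription factors such as the E proteins in inactive pairs. In fibroblasts and other mesenchymal cells the pathway is known for its part in bone, cartilage and limb formation.

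The study holds 3 groups of 3 samples, each sample on 1 array, and all were grown in DMEM. Rescue cells carried a short hairpin RNA against Foxk1, a forkhead transcription factor, and had Foxk1 added back; the labels call them shFoxk1+Foxk1. The shFoxk1 cells carried the same hairpin alone, and shGFP cells, the control, carried a hairpin against GFP, a jellyfish protein. The labels do not say whether a group is 1 clone or a pool, how hairpins were delivered, or how much Foxk1 the rescue cells made. Levels are log2 values, so a difference of 1 is a 2-fold change.

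Correlations between arrays within a group were 0.998 to 0.999 over all probe sets. Of Foxk1's probe sets the brightest, by its mean of 9 arrays, read 8.04, 7.77 and 7.76 in rescue, 7.75, 7.96 and 7.74 in shFoxk1, and 8.98, 8.89 and 8.95 in shGFP. It was lower in shFoxk1 than in shGFP by -1.12 (SE 0.08, limma adjusted p = 7.36e-05). Between rescue and shFoxk1 it differed by 0.04 (SE 0.08, limma adjusted p = 0.883), and so gave no check of the added Foxk1. Of 2 dimmer Foxk1 probe sets, both below the median of all probe sets, 1 had all rescue arrays above all shFoxk1 arrays (0.17, SE 0.07, limma adjusted p = 0.339) and the other overlapped (0.09, SE 0.10, limma adjusted p = 0.734). Fibroblast markers stood at mean log2 levels of 11.29 to 11.36 in rescue, 11.21 to 11.24 in shFoxk1 and 11.23 to 11.24 in shGFP, and 9 of 10 lay above the median of all probe sets, the exception being Lum. Of 6 markers each, 1 endothelial, 2 macrophage and blood cell and 3 epithelial markers lay above that median, and 1 of 5 bone and cartilage markers did. Smooth muscle markers averaged 7.70 to 7.78 in rescue, 7.85 to 8.0 in shFoxk1 and 7.65 to 7.75 in shGFP. Of these 6, 2 were called higher and 1 lower in shFoxk1 than in shGFP, and 2 lower in rescue than in shFoxk1. In rescue against shGFP 1 of them was called higher. Macrophage and blood cell markers averaged 6.33 to 6.38 in rescue, 6.29 to 6.32 in shFoxk1 and 6.40 to 6.43 in shGFP. Of these 6, 2 were called lower in shFoxk1 than in shGFP and 1 lower in rescue than in shGFP. Of the fibroblast markers 1 was called lower in shFoxk1 than in shGFP, 1 higher in rescue than in shFoxk1 and 2 higher in rescue than in shGFP. Among them Dcn, a matrix proteoglycan, averaged 12.09 in rescue, 11.41 in shFoxk1 and 11.69 in shGFP. Of all genes, 3.32%, 0.576% and 4% were called in those 3 comparisons. The part of these markers in the results below was not tested. No listed gene is at 0, since the scale has no zero level. In such bulk samples, fewer cells of a type and less RNA per cell cannot be told apart.

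Bmp4, the ligand, was higher in shFoxk1 than in either other group. Its 1 probe set read 7.31 on all 3 rescue arrays, 8.04, 8.26 and 8.10 on the shFoxk1 arrays, and 6.90, 7.07 and 6.75 on the shGFP arrays. All shFoxk1 arrays lay above all other arrays, and the rescue arrays lay between the 2 other groups without overlap. The group means were 7.31 in rescue, 8.13 ± 0.11 in shFoxk1 and 6.91 ± 0.16 in shGFP (SD, n = 3 each). The shFoxk1 mean exceeded the shGFP mean by 1.23 (SE 0.08), or 2.34-fold. Rescue was below shFoxk1 by -0.83 (SE 0.08), 1.77-fold lower, and above shGFP by 0.40 (SE 0.08), 1.32-fold higher. Rescue therefore kept 32.7% of the log2 distance between shFoxk1 and shGFP. The 3 rescue values were identical in every deposited digit, which was also the case for 333 of the 45037 probe sets, so their SD of 0 understates the spread.

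Bmp2, the closest relative of Bmp4, showed no such pattern. It read 6.33, 5.91 and 5.90 in rescue, 5.93, 5.82 and 5.71 in shFoxk1, and 6.12, 6.15 and 5.94 in shGFP. These levels lay near 5.92, the median of the mean levels of all probe sets, where a log2 value carries little signal above background. The shFoxk1 mean was below the shGFP mean by -0.25 (SE 0.11), with no overlap but with shFoxk1 replicate 1 close to shGFP replicate 3, and rescue differed from shGFP by -0.02 (SE 0.11). Rescue replicate 1 alone raised the rescue mean: rescue stood above shFoxk1 by 0.23 (SE 0.11), and by 0.08 without that array.

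**Figure D1:**
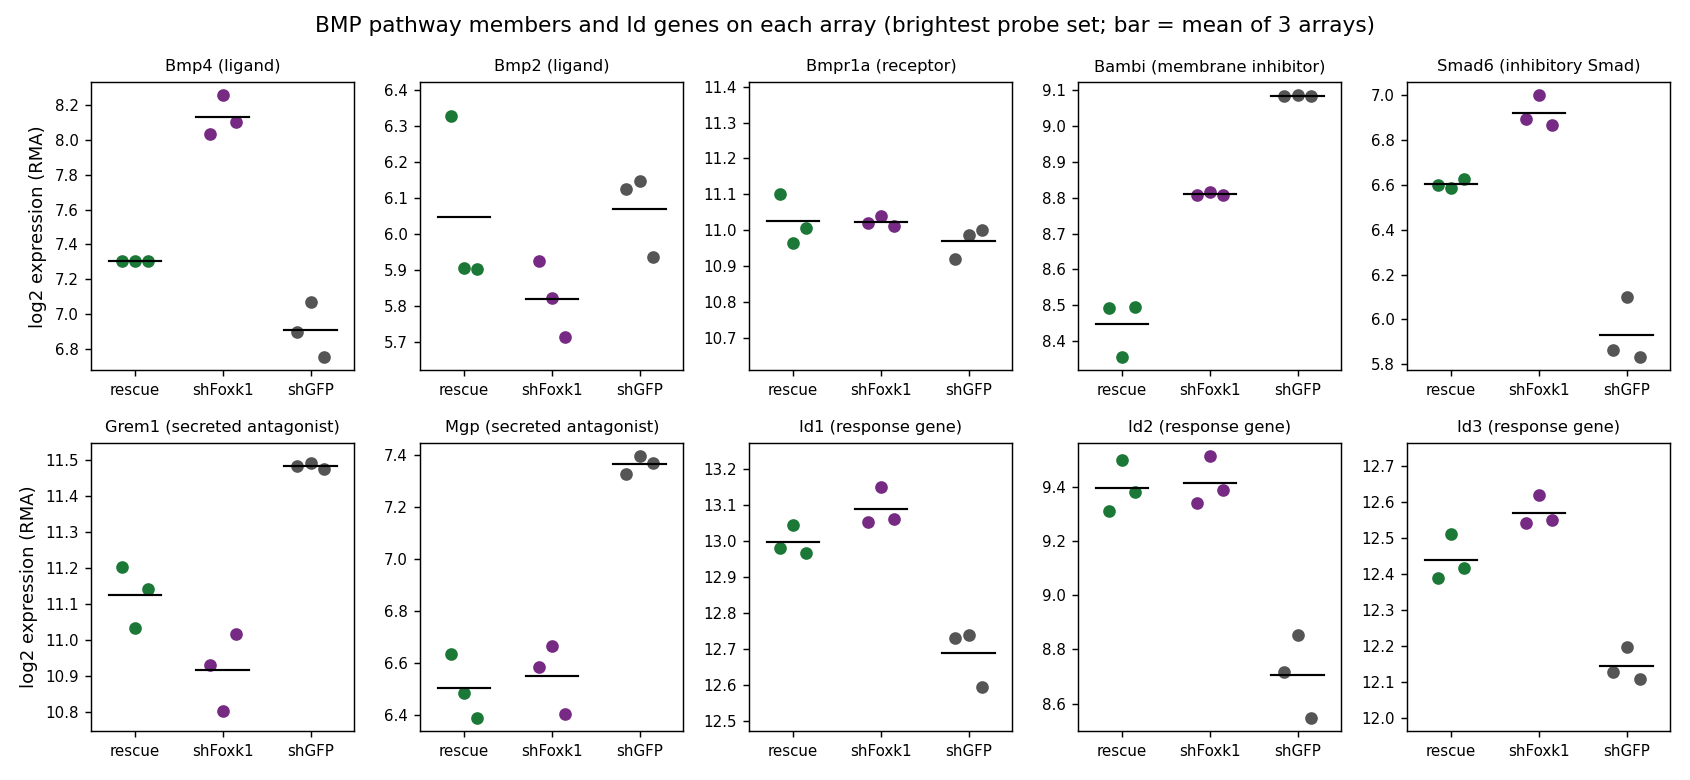
Log2 expression (RMA, vertical axes, each with its own range) of the 10 genes on the 3 arrays of rescue, shFoxk1 and shGFP (points), with the mean of each group (bar), from the brightest probe set of a gene. Bmp4 reads 7.31 on all rescue arrays, between shFoxk1 and shGFP, whereas Mgp and Id2 in rescue overlap shFoxk1.

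Bmpr1a, the type I receptor through which BMP2 and BMP4 signal, differed little between the groups on each of its 6 probe sets. The brightest read 11.10, 10.97 and 11.01 in rescue, 11.02, 11.04 and 11.01 in shFoxk1, and 10.92, 10.99 and 11.00 in shGFP. The difference between shFoxk1 and shGFP was 0.05 (SE 0.05) there and lay between -0.01 and 0.08 over all 6. Between rescue and shFoxk1 the 6 differences ran from -0.10 to 0.00. Every pair of groups overlapped on all 6 probe sets, except that on the brightest the shFoxk1 arrays lay just above the shGFP arrays.

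Of the chosen genes, the secreted antagonists Grem1 and Mgp were lower in shFoxk1 than in shGFP, opposite to Bmp4. Grem1, gremlin, which binds BMP2 and BMP4 outside the cell and blocks them, read 11.20, 11.03 and 11.14 in rescue, 10.93, 10.80 and 11.02 in shFoxk1, and 11.48, 11.49 and 11.47 in shGFP. The 3 groups did not overlap, with shFoxk1 lowest and rescue in the middle. Grem1 in shFoxk1 was -0.57 (SE 0.07) from shGFP, 1.48-fold lower. Rescue was higher than shFoxk1 by 0.21 (SE 0.07) and 1.28-fold lower than shGFP (-0.36, SE 0.07), so 63.0% of the distance remained.

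Mgp, matrix Gla protein, a secreted calcification inhibitor that also binds BMP2 and BMP4, read 6.63, 6.49 and 6.39 in rescue, 6.58, 6.67 and 6.40 in shFoxk1, and 7.33, 7.40 and 7.37 in shGFP. Rescue and shFoxk1 overlapped and both lay wholly below shGFP. The shFoxk1 mean was -0.82 (SE 0.08) from shGFP, 1.76-fold lower, and the rescue mean was -0.86 (SE 0.08) from shGFP, 1.82-fold lower. Rescue differed from shFoxk1 by only -0.05 (SE 0.08), a sign that turned to 0.01 without shFoxk1 replicate 2 or rescue replicate 3.

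Bambi, a membrane protein that resembles a type I receptor but lacks its kinase and so dampens signalling, was lower in shFoxk1 than in shGFP and lower still in rescue. It read 8.49, 8.36 and 8.50 in rescue, 8.81, 8.82 and 8.81 in shFoxk1, and 9.08, 9.09 and 9.08 in shGFP. The 3 groups did not overlap, and the rescue arrays were lowest. The mean in shFoxk1 was -0.27 (SE 0.05) from shGFP, 1.21-fold lower. In rescue it was -0.36 (SE 0.05) from shFoxk1, 1.29-fold lower, and -0.64 (SE 0.05) from shGFP, 1.55-fold lower. The distance of rescue from shGFP was 233% of that of shFoxk1.

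Smad6, the inhibitory Smad that binds the active type I receptor and that BMP signals are known to induce, followed Bmp4 and not the other inhibitors. It read 6.60, 6.59 and 6.62 in rescue, 6.89, 7.00 and 6.86 in shFoxk1, and 5.86, 6.10 and 5.83 in shGFP. No array of 1 group overlapped another group. Smad6 was higher in shFoxk1 than in shGFP by 0.99 (SE 0.07), 1.98-fold. Rescue was 1.24-fold lower than shFoxk1 (-0.31, SE 0.07) and 1.59-fold higher than shGFP (0.67, SE 0.07), and kept 68.1% of the distance. The shGFP level, 5.93 ± 0.15, was at the median of all probe sets, as that of Bmp2 was, so neither the folds against shGFP nor the share kept are exact sizes.

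Id1, Id2 and Id3 were all higher in rescue and in shFoxk1 than in shGFP, and differed less between rescue and shFoxk1. Id1 read 12.98, 13.04 and 12.97 in rescue, 13.05, 13.15 and 13.06 in shFoxk1, and 12.73, 12.74 and 12.59 in shGFP. Its arrays kept the order shFoxk1, rescue, shGFP without overlap, although the gap between rescue and shFoxk1 was small. The shFoxk1 mean was above shGFP by 0.40 (SE 0.06), 1.32-fold, and the rescue mean by 0.31 (SE 0.06), 1.24-fold. Id1 in rescue was -0.09 (SE 0.06) from shFoxk1.

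Id3 had the same order. It read 12.39, 12.51 and 12.42 in rescue, 12.54, 12.62 and 12.55 in shFoxk1, and 12.13, 12.20 and 12.11 in shGFP. It was higher than shGFP by 0.42 (SE 0.05) in shFoxk1, 1.34-fold, and by 0.29 (SE 0.05) in rescue, 1.23-fold. Rescue was -0.13 (SE 0.05) from shFoxk1, and 77.2% and 69.3% of the distance remained for Id1 and Id3.

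Id2 was measured by 3 probe sets. The brightest read 9.31, 9.50 and 9.38 in rescue, 9.34, 9.51 and 9.39 in shFoxk1, and 8.72, 8.85 and 8.55 in shGFP. Rescue and shFoxk1 overlapped almost fully, and both lay above shGFP. The difference from shGFP was 0.71 (SE 0.08) in shFoxk1, 1.63-fold, and 0.69 (SE 0.08) in rescue, 1.61-fold, so 97.4% of the distance remained. The next Id2 probe set read 8.88, 8.42 and 8.97 in rescue, 9.05, 8.87 and 9.14 in shFoxk1, and 8.20, 8.27 and 8.26 in shGFP. Rescue replicate 2 stood low on it, and its rescue mean was -0.27 (SE 0.12) from shFoxk1. On this probe set the difference from shGFP was 0.78 (SE 0.12) in shFoxk1 and 0.51 (SE 0.12) in rescue. The dimmest Id2 probe set, below the median of all probe sets, was higher in shFoxk1 than in shGFP by 0.17 (SE 0.07) and in rescue by 0.18 (SE 0.07).

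**Figure D2:**
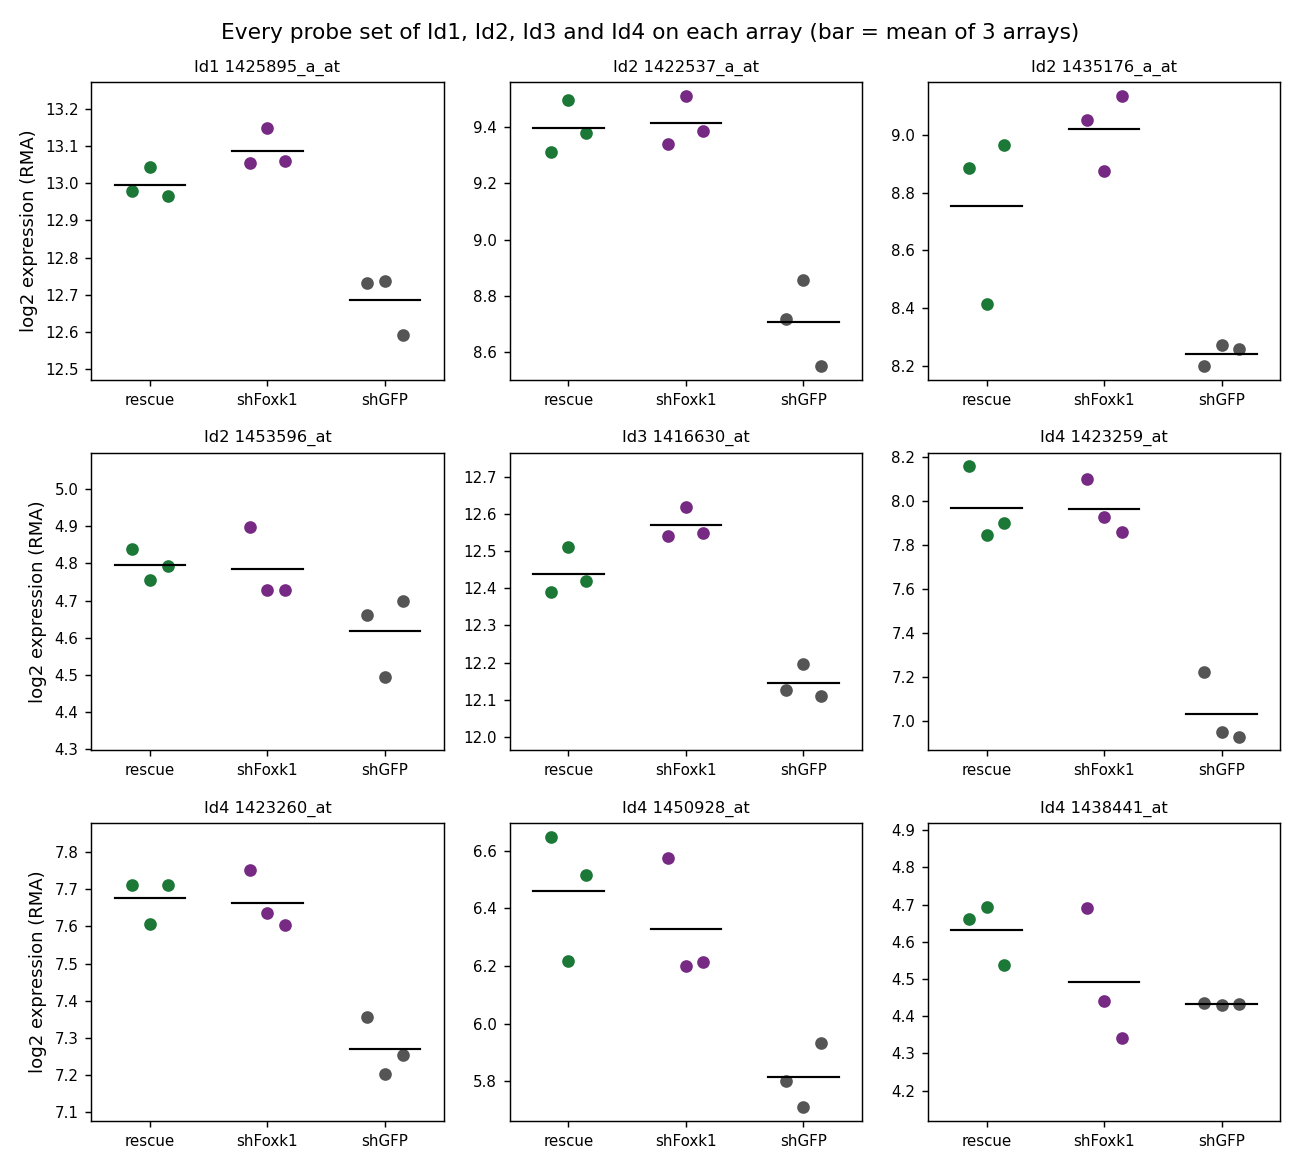
Log2 expression (RMA, vertical axes, each with its own range) of every probe set of Id1, Id2, Id3 and Id4 on the 3 arrays of rescue, shFoxk1 and shGFP (points), with group means (bars). The brightest Id2 and Id4 probe sets overlap in rescue and shFoxk1 and lie wholly above shGFP, and the dimmest Id4 probe set differs by only 0.06 between shFoxk1 and shGFP.

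Over the 17 probe sets, 9 were called by limma at an adjusted p under 0.05 in shFoxk1 against shGFP, 6 higher and 3 lower, where 2.77% of all probe sets were called, 1.12% higher and 1.65% lower. In rescue against shFoxk1 2 of 17 were called, both lower, where 0.391% of all were called, 0.271% higher and 0.12% lower. In rescue against shGFP 8 of 17 were called, 5 higher and 3 lower, where 3.51% of all were, 1.29% higher and 2.22% lower. Because these 3 comparisons were in view when the genes were chosen, nothing is read from those counts. By the brightest probe set, 8 of 10 genes were called in shFoxk1 against shGFP (3.32% of all genes), 2 in rescue against shFoxk1 (Bmp4 and Bambi, 0.576%) and 8 in rescue against shGFP (4%). The first of these counts was 7, without Bambi, when any 1 shFoxk1 or shGFP replicate was left out. The last was 7 without rescue replicate 1 or shGFP replicate 2, 6 without rescue replicate 3, 5 without rescue replicate 2 or shGFP replicate 1 and 4 without shGFP replicate 3. That for rescue against shFoxk1 was 1 without shFoxk1 replicate 1 or 3 and with only the 6 arrays compared. All arrays of shFoxk1 and shGFP stood apart on 12 of 17 probe sets, 8 higher and 4 lower, as on 20.1% of all (10.1% higher, 9.91% lower). Rescue and shFoxk1 stood apart on 6, 1 higher and 5 lower, as on 14.2% of all (6.95% higher, 7.24% lower). Rescue and shGFP did so on 10, 7 higher and 3 lower, as on 19.5% of all (9.14% higher, 10.4% lower). The 3 comparisons share arrays, so their values are set side by side and not related to each other.

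Set out by role, the ligand Bmp4 lay nearer to shGFP than to shFoxk1 in rescue, while Smad6, Grem1, Id1 and Id3 lay nearer to shFoxk1. Mgp in rescue overlapped shFoxk1, with 106% of the distance from shGFP. Bambi in rescue lay beyond shFoxk1, at 233% of that distance. Bmp2, the other ligand, kept 9.05%, at levels that carry little signal above background. For Id2 the probe sets differed, the brightest keeping 97.4% of the distance and the next 65.9%. These percentages are ratios of small differences and carry no test.

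**Figure D3:**
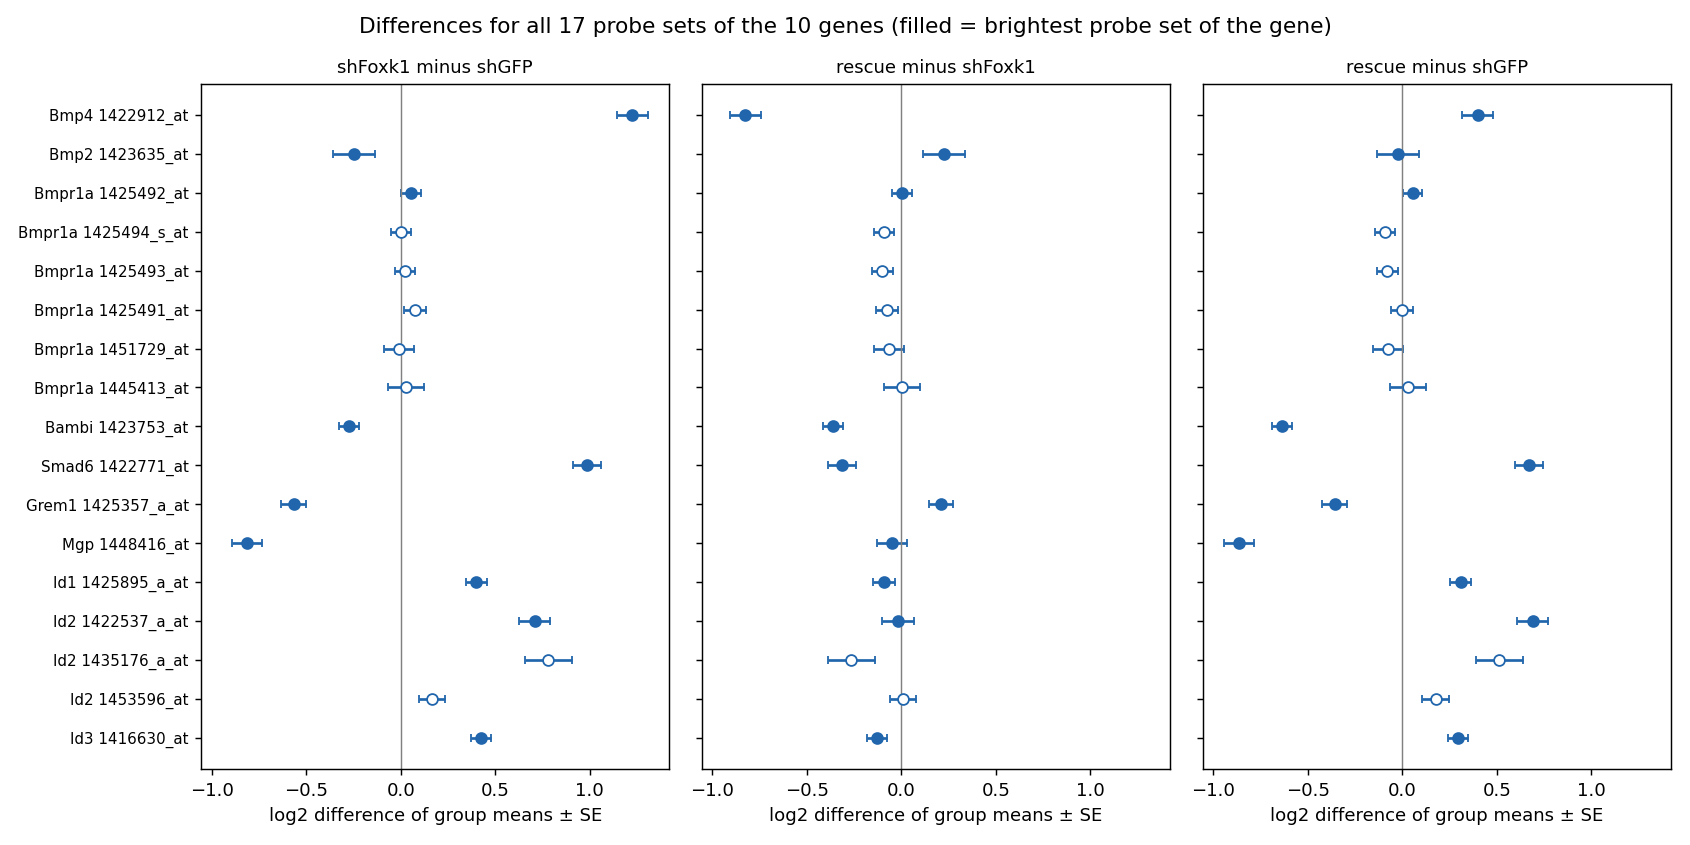
Log2 difference of group means (horizontal axes) with the standard error of the limma fit (bars) for all 17 probe sets in shFoxk1 minus shGFP, rescue minus shFoxk1 and rescue minus shGFP. Filled points mark the brightest probe set of a gene. Bmp4, Smad6 and the Id genes lie to the right in shFoxk1 minus shGFP, Grem1, Mgp and Bambi to the left, and the 6 Bmpr1a probe sets lie between -0.10 and 0.08 in all 3 panels.

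The other genes of the pathway were taken from 6 lists of known roles and not from how they moved. The lists were nevertheless chosen with earlier results of these data known, among them that Fstl1 differed. They were therefore not blind to these arrays. Of 80 listed genes, 77 had a probe set, each represented by its brightest, and 50 lay above the median of all probe sets. In shFoxk1 against shGFP 2 rose, 1 fell and 74 did not pass, which is 3.9% called, beside 3.32% of all genes (1.52% higher, 1.79% lower). Against shFoxk1, rescue had 0 higher, 1 lower and 76 not past the test (1.3%, beside 0.576%, of which 0.416% higher and 0.16% lower), and against shGFP it had 2 higher, 2 lower and 73 not past the test (5.19%, beside 4%, of which 1.98% higher and 2.02% lower). The median difference of the 77 was 0.01, 0.02 and 0.02 in the 3 comparisons in that order, against 0.00, 0.01 and 0.02 over all genes. The count for shFoxk1 against shGFP was 5 without rescue replicate 2, and that for rescue against shGFP was 2 without rescue replicate 2 or 3 or any 1 shGFP replicate. The count for shFoxk1 against shGFP was also 7 with the replicate number as block, with array weights or with a filter on low values.

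Id4, the remaining Id gene, was the response gene that passed. Its brightest probe set read 8.16, 7.85 and 7.90 in rescue, 8.10, 7.92 and 7.86 in shFoxk1, and 7.22, 6.95 and 6.93 in shGFP. Rescue and shFoxk1 overlapped and every array of either lay above every shGFP array. Id4 rose in shFoxk1 by 0.93 over shGFP (SE 0.10, 3 of 3 arrays, limma adjusted p = 0.000928) and in rescue by 0.93 (SE 0.10, limma adjusted p = 0.000897), and passed under all 18 alternative settings in both. Rescue and shFoxk1 differed by 0.01 (95% interval -0.22 to 0.23, limma adjusted p = 0.989). Of its 3 other probe sets, 1 passed in shFoxk1 against shGFP (0.39, adjusted p = 0.00734 by limma), and those at 0.52 (0.0572) and 0.06 (0.815) did not. In rescue against shGFP the same 3 gave 0.40 (adjusted p = 0.00552 by limma), 0.65 (0.0174) and 0.20 (0.281).

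The other 15 response genes did not pass in any of the 3 comparisons, among them Msx1, Msx2, Dlx5, Runx2 and Gata2. Msx2 and Dlx5 lay below the median of all probe sets, so little can be said of them. Atoh8, a bHLH factor gene that BMP signals induce, had 7.59 ± 0.13 in rescue, 7.60 ± 0.14 in shFoxk1 and 7.26 ± 0.09 in shGFP (SD, n = 3 each). It was 0.34 from shGFP in shFoxk1 (SE 0.09, limma adjusted p = 0.0696) and was named after its values were seen. Junb, of the same list, went the other way, with 8.93 ± 0.09 in rescue, 8.82 ± 0.11 in shFoxk1 and 9.10 ± 0.10 in shGFP. Junb was -0.27 from shGFP in shFoxk1 (SE 0.08, limma adjusted p = 0.0988) and was also named after its values were seen. The median difference of the 16 listed response genes was 0.01 in shFoxk1 against shGFP.

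Among the 19 other secreted antagonists and modulators, Fstl1, a follistatin-like glycoprotein that binds BMP4, rose. It read 11.52, 11.48 and 11.55 in rescue, 11.69, 11.68 and 11.60 in shFoxk1, and 11.04, 10.98 and 10.97 in shGFP, with no overlap between groups. The rise over shGFP was 0.66 in shFoxk1 (SE 0.05, 1.58-fold, limma adjusted p = 7.36e-05) and 0.52 in rescue (SE 0.05, 1.44-fold, limma adjusted p = 0.000376), and its other probe set gave 0.62 and 0.44.

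Crim1, a membrane protein that binds BMPs and hinders their maturation, read 9.17, 8.89 and 9.02 in rescue, against 9.53, 9.45 and 9.58 in shFoxk1, and 9.28, 9.23 and 9.24 in shGFP. It fell in rescue against shFoxk1 by -0.50 (SE 0.07, 1.41-fold lower, limma adjusted p = 0.0154), with all arrays apart. That call was lost without rescue replicate 3 (adjusted p = 0.0731), shFoxk1 replicate 1 (0.0870) or shFoxk1 replicate 3 (0.0956) and with only the 6 arrays compared (0.0926). The other Crim1 probe set, below the median of all probe sets, did not pass at -0.36 (SE 0.10, limma adjusted p = 0.197), also with all arrays apart. Follistatin (Fst), which sequesters activins and some BMPs, read 9.24, 9.16 and 9.32 in rescue and 9.61, 9.56 and 9.50 in shGFP, and fell in rescue by -0.32 (SE 0.07, limma adjusted p = 0.0306). The Fst call was lost without rescue replicate 1 (adjusted p = 0.0624), 2 (0.104) or 3 (0.0524), shFoxk1 replicate 1 (0.0514) or shGFP replicate 1 (0.122), 2 (0.0988) or 3 (0.0705). Its other probe set passed at -0.46 (SE 0.07, limma adjusted p = 0.00402). Noggin (Nog), the classical BMP antagonist, stayed between 4.24 and 4.51 on all 9 arrays, well below the median of all probe sets.

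Of the 12 Smads and intracellular regulators, the ubiquitin ligase gene Smurf1, whose product marks BMP Smads for degradation, passed in shFoxk1 against shGFP. It read 8.57, 8.69 and 8.54 in shFoxk1 and 8.84, 8.87 and 8.83 in shGFP, and fell by -0.25 (SE 0.05, limma adjusted p = 0.0321). This call was lost without rescue replicate 3 (adjusted p = 0.0540), shFoxk1 replicate 1 (0.131) or 3 (0.108), or shGFP replicate 1 (0.0891), 2 (0.131) or 3 (0.0931), and with only the 6 arrays compared (0.0597). The other Smurf1 probe set did not pass at -0.29 (SE 0.10, limma adjusted p = 0.178), with all arrays apart. Smurf2, its relative, passed in rescue against shGFP at -0.26 (SE 0.05, limma adjusted p = 0.0260), with 9.44, 9.40 and 9.31 in rescue and 9.67, 9.68 and 9.59 in shGFP. It lost the call without rescue replicate 2 (adjusted p = 0.0615) or 3 (0.107), shGFP replicate 1 (0.0999), 2 (0.101) or 3 (0.0522) and with only the 6 arrays compared (0.0607), and its other probe sets, at -0.06 and -0.37, did not pass. Smad1, a BMP-activated Smad, was 0.18 from shGFP in shFoxk1 (95% interval 0.05 to 0.32, limma adjusted p = 0.166). Smad7, the other inhibitory Smad, was 0.13 from shGFP in shFoxk1 (95% interval 0.02 to 0.24, limma adjusted p = 0.232).

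None of the 10 other ligands, 10 other receptors and co-receptors or 10 bHLH factors passed in any of the 3 comparisons by limma. Only 3 of these ligands, 7 of the receptors and co-receptors and 7 of the bHLH factors lay above the median of all probe sets. Little can be said of the rest, whose levels carry little signal above background. The E proteins Tcf3, Tcf4 and Tcf12, the chief partners of Id proteins, differed between shFoxk1 and shGFP by -0.01, 0.07 and -0.00, with 95% intervals of -0.15 to 0.13, -0.05 to 0.19 and -0.12 to 0.11.

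**Figure D4:**
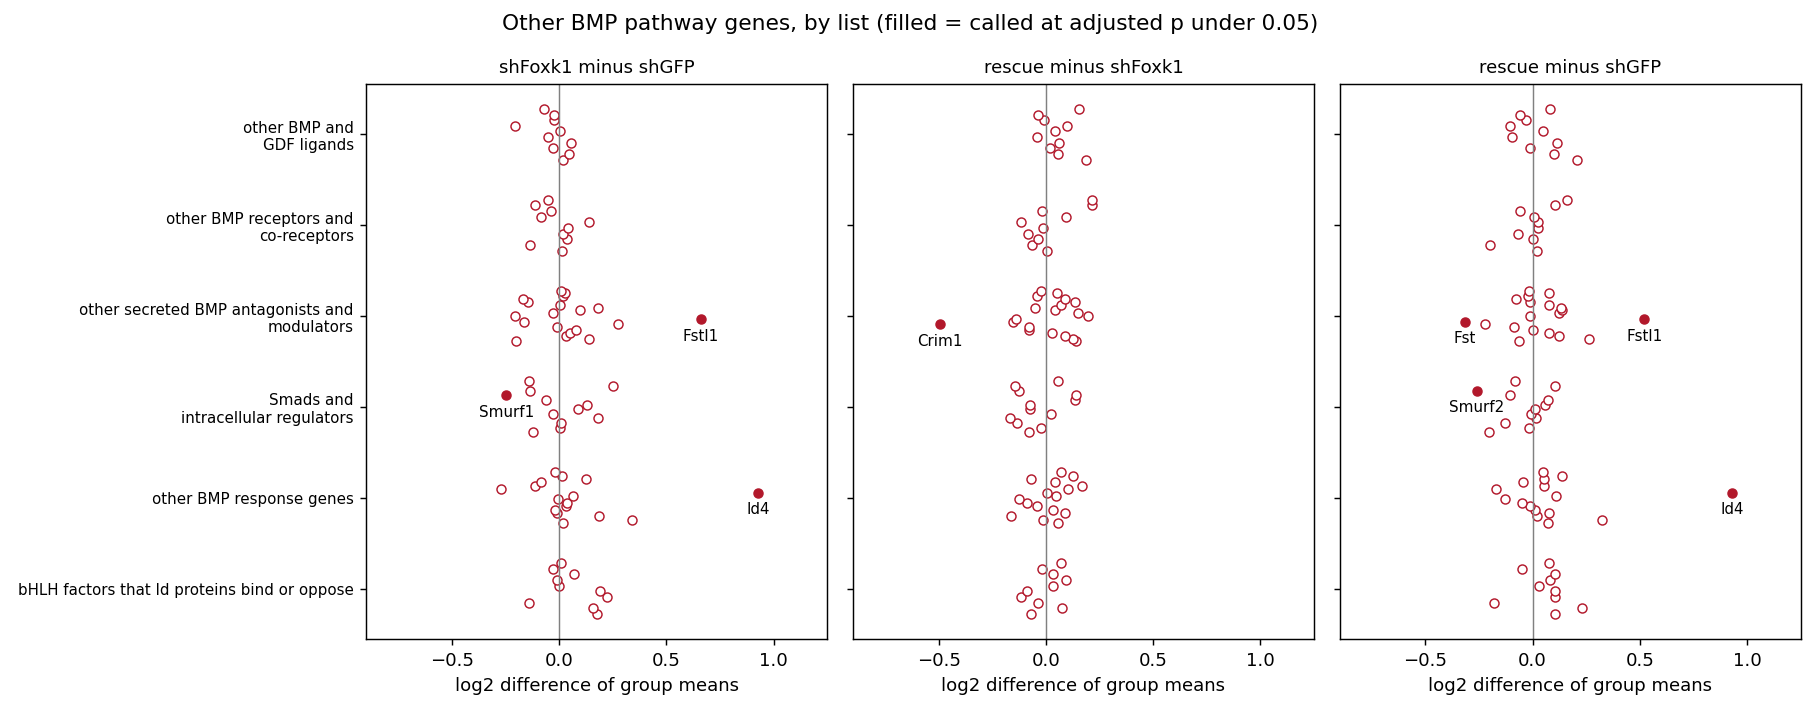
Log2 difference of group means (horizontal axes) for 77 other BMP pathway genes in 6 lists (rows) in shFoxk1 minus shGFP, rescue minus shFoxk1 and rescue minus shGFP, 1 point per gene. Filled, named points were called at adjusted p under 0.05. Id4 stands at 0.93 in both comparisons with shGFP and near 0 in rescue minus shFoxk1.

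To see which genes had the profile of Bmp4, log2 values were centred on each gene's mean and compared over the 9 arrays by the root mean square difference, by the brightest probe set of 20671 other genes. The nearest was Akap12, a scaffold protein for kinase A, at 0.16 beside a spread of 0.52 for Bmp4 itself. It averaged 8.36 in rescue, 8.96 in shFoxk1 and 8.03 in shGFP. Next came the smooth muscle genes Tagln (0.16; 9.05 in rescue, 9.76 in shFoxk1 and 8.89 in shGFP) and Acta2 (0.17; 11.2, 11.7 and 10.9 in that order of groups). The Acta2 probe set can match other transcripts. Smad6 followed at 0.21 and Heca at 0.23. For Id2 the nearest were Galnt15 (0.09), Uchl1 (0.10), Ccl9 (0.10), Dnajc12 (0.11) and Pdcd4 (0.11), beside a spread of 0.34 for Id2. All 5 stood near each other in rescue and shFoxk1, as Ccl9 did at 8.08 and 7.93, against 7.38 in shGFP. This is a description over arrays that share their groups.

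Promoter windows are shown for the genes that were higher in shFoxk1 than in shGFP, to let the letters near their start sites be set beside the values above. RefSeq's table for build GRCm38.p6 holds 250 bases before and 50 after a gene's start, and windows of 6 of the 10 genes were used. Bmp2, Bambi, Mgp and Id1 had none among these. Windows on a chromosome left out of the search were not looked at, so that table may hold more. A gene listed here as without a window may therefore lack it because of the search and not because of the table. Those of Bmp4 (chr14:46390620-46390919, minus strand), Smad6 (chr9:64022010-64022309, minus strand), Id2 (chr12:25096043-25096342, minus strand), Id3 (chr4:136143572-136143871, plus strand) and of Id4 (chr13:48260866-48261165, plus strand) follow, 5′ to 3′. Capitals mark the GC-rich BMP-Smad site GGCGCC and the Smad box CAGAC, searched on both strands.
Bmp4: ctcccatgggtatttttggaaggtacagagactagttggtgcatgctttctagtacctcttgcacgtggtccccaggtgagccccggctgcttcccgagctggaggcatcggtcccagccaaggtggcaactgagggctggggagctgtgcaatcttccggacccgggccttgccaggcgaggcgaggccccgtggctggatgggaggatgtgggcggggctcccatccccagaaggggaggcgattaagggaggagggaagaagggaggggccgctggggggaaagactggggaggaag
Smad6: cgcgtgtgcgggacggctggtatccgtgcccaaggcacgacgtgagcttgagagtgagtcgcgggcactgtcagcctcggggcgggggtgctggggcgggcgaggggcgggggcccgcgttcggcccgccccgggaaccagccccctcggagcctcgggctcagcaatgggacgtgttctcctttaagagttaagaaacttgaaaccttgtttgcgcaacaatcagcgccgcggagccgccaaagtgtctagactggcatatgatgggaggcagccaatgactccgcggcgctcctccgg
Id2: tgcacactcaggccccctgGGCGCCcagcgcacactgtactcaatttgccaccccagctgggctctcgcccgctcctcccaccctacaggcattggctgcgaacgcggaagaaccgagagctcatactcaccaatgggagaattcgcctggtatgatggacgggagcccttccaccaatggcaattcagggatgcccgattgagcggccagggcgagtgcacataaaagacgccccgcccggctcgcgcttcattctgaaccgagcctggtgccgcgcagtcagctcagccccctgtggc
Id3: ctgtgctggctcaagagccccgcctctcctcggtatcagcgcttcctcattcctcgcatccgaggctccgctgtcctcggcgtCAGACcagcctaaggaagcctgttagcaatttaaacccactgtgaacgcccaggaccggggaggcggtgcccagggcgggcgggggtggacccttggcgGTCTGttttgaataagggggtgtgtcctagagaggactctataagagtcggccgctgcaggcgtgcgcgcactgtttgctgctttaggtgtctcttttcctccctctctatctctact
Id4: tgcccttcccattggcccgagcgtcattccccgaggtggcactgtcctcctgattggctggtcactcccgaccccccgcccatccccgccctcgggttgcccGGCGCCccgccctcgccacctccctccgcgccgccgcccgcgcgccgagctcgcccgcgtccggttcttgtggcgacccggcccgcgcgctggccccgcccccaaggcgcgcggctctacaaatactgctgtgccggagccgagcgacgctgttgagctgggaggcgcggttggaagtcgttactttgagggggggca

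The site GGCGCC was found once in the Id2 window, with its first base at -231 from the start, and once in that of Id4, at -148. It was in 11.9% of all 32851 windows. CAGAC, present in 49.6% of all windows, was found in the Id3 window at -167 and, on the other strand, at -68. The Bmp4 and Smad6 windows held neither. Of the windows not printed, that of Grem1, which was lower in shFoxk1, held GGCGCC at -78 and CAGAC at -219 and 18, and that of Bmpr1a, which differed little, held GGCGCC at -198. The forkhead core GTAAACA, in 3.65% of all windows, was in none of these windows, and no matches overlapped. That says nothing of Bmp2, Bambi, Mgp and Id1, for which no window was used. The 5 windows were 60 to 73.3% G and C, where the median window was 52.7%. A match describes letters and is not a binding site, and the lack of one speaks only for these 300 bases.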

How the data were processed

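The authors deposited 1 log2 expression value per probe set and array. The submitters' processing notes name RMA and affy, without versions in the sources used here. The method corrects background, makes the arrays' distributions alike and summarises probes, so differences in total RNA are removed. Per the file headers, the authors' deposited tables for shFoxk1 against shGFP (WT there) and rescue against shFoxk1 hold log2 fold changes, p-values, adjusted p-values and the scores t and B. Run on all 45101 probe sets, the limma fit called 1238 and 170 probe sets, as many as the authors' deposited tables list.

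Here, 64 control probe sets were left out and limma fitted group means to the 9 arrays together, with version 3.58.1 in R 4.3.3, without covariates (6 residual degrees of freedom). Tests were two-sided, with Benjamini-Hochberg adjustment over 45037 probe sets and calls at an adjusted p under 0.05. Symbols came from the authors' deposited table and were updated through RefSeq (GRCm38.p6, names only). A gene is represented by its brightest probe set unless all are given. The fit was run on simulated data to see whether it recovers changes that were put in. Those data had independent normal noise, without the ties or the likeness of same-numbered replicates on these arrays. They therefore do not test the assumptions of the fit here. Fold changes are 2 to the power of the log2 difference.

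The genes and lists were chosen with earlier results of these data known. Named genes are the 10 chosen ones, Foxk1, the called genes of 6 pathway lists, Id4, Nog, Smad1, Smad7, 3 E proteins and the 5 nearest profiles to Bmp4 and Id2. Outside this rule, Atoh8, Junb, Msx1, Msx2, Dlx5, Runx2 and Gata2 of the response list and the markers Lum and Dcn were named after their values were seen. Cell type markers came from 6 lists. The labels do not say that replicates are separate cultures, so p-values reflect no more than the spread among these samples, possibly technical, and the number of arrays limits the precision. The labels number replicates alike in every group. Same-numbered deviations from the group means correlated at 0.24, 0.17 and 0.10 between rescue and shFoxk1, so a block on the number was taken as a pairing there, from the data and not the labels. It was not taken so between shFoxk1 and shGFP (0.10, 0.13 and 0.06) or rescue and shGFP (0.18, 0.15 and 0.04), where not all 3 exceeded 0.10. Same-numbered correlations were positive in all 3 comparisons, and different-numbered ones ran from -0.18 to 0.03. This cutoff therefore cannot show that pairing is absent in any comparison. The alternatives were that block, the 6 arrays compared, 2 variance settings, a filter on low values, 3 choices of probe sets, median centring and leaving out each array.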

Additional observations from a re-analysis of the deposited data

How the results depend on the processing

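The differences of the 10 genes kept their sign under all 18 alternative settings wherever the main fit had called them. This says little of how firm the signs are, because most of these settings could not turn them. The replicate block, the fit to only the arrays compared, trend and robust variance, and the filter left the differences of group means unchanged. In every called difference all arrays of both groups stood apart, so leaving out or weighting arrays could not turn its sign either. Among differences not called, the sign varied for Bmpr1a, Mgp and Id2 in rescue against shFoxk1 and for Bmp2 and Bmpr1a in rescue against shGFP. Averaging the probe sets of a gene brought Id2 to 0.55 in shFoxk1 and 0.46 in rescue, both against shGFP.

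The probe sets called in shFoxk1 against shGFP were 1248 in the main fit, 2165 with trend and robust variance estimates, 2086 with array weights, 2003 with the filter on low values and 589 to 1339 when 1 array was left out. In rescue against shFoxk1 they were 176, and 56 with only the 6 arrays compared, 414 with trend and robust variance, 283 with array weights, 347 with the filter and 65 to 236 when 1 array was left out. In rescue against shGFP they were 1583, and 2541 with trend and robust variance, 1042 genes with 1 probe set per gene and 768 to 1715 when 1 array was left out. The other pathway genes called in shFoxk1 against shGFP were 3, and 7 with the replicate block, 6 with trend and robust variance, 7 with array weights, 7 with the filter, 7 with a gene's probe sets averaged and 2 to 5 when 1 array was left out. In rescue against shFoxk1 the count was 1, and 0 with only the 6 arrays compared and 0 to 1 when 1 array was left out. In rescue against shGFP it was 4, and 2 to 4 when 1 array was left out. Leaving out arrays leaves fewer samples, the filter leaves fewer probe sets to test, and the cause of the other shifts was not tested.

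With the replicate block 1533, 254 and 1779 probe sets were called in the 3 comparisons, and the pairing changed no call of the 10 genes in rescue against shFoxk1. Values are on a scale that RMA compresses at low levels, which limits what can be said of Bmp2, Smad6 in shGFP, Nog and the dimmest probe sets of Id2, Id4 and Bmpr1a.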

Other observations

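Within groups, several of these genes had their highest value on the same array. By the brightest probe set of each gene, Bmp4, Smad6, Id1, Id2 and Id3 were all highest on replicate 2 in the shFoxk1 group. So they were in the shGFP group, while Id4 was highest on replicate 1 in both. This was not particular to the genes that rose. Mgp and, by a small margin, Bambi, which fell, were also highest on replicate 2 in both groups. Bmpr1a was so in shFoxk1 only, and Grem1 and Bmp2 in shGFP only. In rescue Id1, Id2 and Id3 were highest on replicate 2, Smad6 on replicate 3 and Id4 on replicate 1, and Bmp4 was equal on all 3. There Bmp2, Bmpr1a, Grem1 and Mgp were highest on replicate 1 and Bambi on replicate 3. The ranges within a group were 0.22 in shFoxk1 and 0.32 in shGFP for Bmp4, and 0.17 in shFoxk1 and 0.31 in shGFP for Id2 (log2). The next Id2 probe set was lowest on replicate 2 in shFoxk1 (8.87) and in rescue (8.42), and highest on it in shGFP (8.27). How many of all genes were highest on each replicate was not counted. The pattern of highest values was noticed after the values were seen and carries no test.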
